A study of Mus musculus with 3 samples.

Results

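Growth arrest and p53 response genes, 10 in all, were followed across the adipocyte progenitors of mouse subcutaneous fat. The members were named as a list: the cyclin-dependent kinase inhibitors Cdkn1a, Cdkn1b and Cdkn2c, the stress genes Gadd45a, Gadd45b and Gadd45g, the antiproliferative genes Btg1 and Btg2, and the p53 targets Mdm2 and Ccng1. They are 10 of the 32285 genes in the count files, and all 10 passed the filter on low counts in every comparison. The cells came from 3 wild-type (WT) male C57BL/6J mice aged 8 weeks, as the CD31- CD45- part of the stromal vascular fraction of the inguinal depot, which is what collagenase digestion leaves after mature adipocytes have floated away. There was 1 single-cell library per mouse and 1 condition, so classes of cells were compared within the mice and no groups of mice. The genes were read as unique molecular identifiers (UMIs, 1 per captured transcript molecule), summed over the cells of a class in a mouse and scaled to a total of 1000000 UMIs in each sum (CPM).

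Most of these genes slow or stop the cell cycle, and Mdm2 is an exception because its protein acts against p53. The protein of Cdkn1a, p21, and that of Cdkn1b, p27, bind cyclin and kinase complexes, while that of Cdkn2c, p18, blocks the CDK4 and CDK6 kinases that work with D-type cyclins. Gadd45 proteins respond to stress and DNA damage and activate the MAP3K4 kinase, and BTG proteins recruit the CCR4-NOT deadenylase that shortens mRNA tails. The factor p53 induces Cdkn1a, Gadd45a, Btg2, Ccng1 and Mdm2, and MDM2 is the ubiquitin ligase that degrades p53 in turn. Several of them are also immediate targets of stress and growth signals, and freshly dissociated tissue is known for such a response. Fat holds Dpp4+ interstitial progenitors, Icam1+ preadipocytes committed to the adipocyte fate, and regulatory cells (marked by Clec11a, Fmo2 and F3).

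The promoters with a p53 half-site are shown because p53 is the regulator that names part of the list. RefSeq promoters on GRCm38.p6 were found for 10 of 10 members, and the 250 bases before each start were searched on both strands. The 10-base p53 half-site, searched as a pattern with a choice of bases at most positions, was in 4 members and in 7.13% of 32851 promoters. In the lines that follow, capitals mark that half-site. Cdkn1a (chr17:29090891-29090952, plus strand) held it at 2 places, which lie between 73 and 42 bases before its upstream start. The window before its other start (chr17:29093519-29093768) held none. The sites of Mdm2 (chr10:117710920-117710959, minus strand) and Ccng1 (chr11:40755447-40755486, minus strand) are 186 and 185 bases before the start. That of Gadd45a (chr6:67037428-67037457, minus strand) lies 40 bases before the RefSeq start, inside the gene as GENCODE draws it.
Cdkn1a: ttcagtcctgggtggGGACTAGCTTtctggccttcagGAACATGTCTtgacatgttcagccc
Mdm2: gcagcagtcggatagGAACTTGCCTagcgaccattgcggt
Ccng1: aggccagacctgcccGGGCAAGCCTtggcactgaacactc
Gadd45a: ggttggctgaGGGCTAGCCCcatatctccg

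The cAMP response element TGACGTCA, which binds CREB and its relatives, was in Btg2 alone among the members and in 1.55% of all promoters. It stands 166 bases before the start (chr1:134079299-134079336, minus strand), in capitals here.
Btg2: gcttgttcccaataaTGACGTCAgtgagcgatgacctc

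The AP-1 site TGANTCA was in no member's window and in 6.75% of all promoters. The E-box CACGTG was in Gadd45b and Gadd45g, and in 6.02% of all promoters. The CCAAT box, a general promoter element, was in 8 members and in 33.9% of all promoters. The NF-kB motif and the serum response element, both searched as patterns with a choice of bases, were in no member's window. They were in 7.25% and 1.47% of all promoters. On the annotated genome Cdkn1a (chromosome 17), Cdkn1b and Gadd45a (6), Cdkn2c (4), Gadd45b, Btg1 and Mdm2 (10), Gadd45g (13), Btg2 (1) and Ccng1 (11) have no exon in common with another gene of the same strand. An exon of Gadd45a overlaps E230016M11Rik on the opposite strand.

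The rule keeps cells with over 500 detected genes and under 5% of UMIs from mitochondrial genes, here 12984, 6414 and 15179 cells in replicates 1, 2 and 3, with a median of 7392.5, 12192.5 and 6667 UMIs. Replicate 2 had the fewest cells and the deepest ones. Between 52 and 81 barcodes were in common between any pair of libraries. Cells were gated on raw UMIs: progenitor (Dpp4 and Pi16 together at 3 or more, Icam1 and Fabp4 together at 1 or fewer), preadipocyte (Icam1 and Fabp4 at 4 or more, Dpp4 at 1 or fewer), regulatory (Clec11a and Fmo2 each at 1 or more, Fabp4 and Dpp4 each at 1 or fewer) and Cilp/Myoc (both together at 3 or more, Icam1 and Fabp4 at 1 or fewer). Cells that passed exactly 1 gate were used. They were 6847, 2887 and 8660 progenitor, 2278, 1394 and 1889 preadipocyte, 269, 381 and 403 regulatory, and 80, 30 and 29 Cilp/Myoc cells. A further 554, 282 and 614 Cilp/Myoc cells also passed the progenitor gate and were left out, so the Cilp/Myoc sums hold only 446253, 258031 and 118804 UMIs.

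Markers that the gates did not use were highest in the class they name. The 7 progenitor markers summed to between 3764 and 4810 CPM in the progenitor gate and to at most 977 CPM elsewhere. The 6 preadipocyte markers, such as Pparg and Plin2, summed to between 7261 and 9072 CPM in the preadipocyte gate and to at most 4739 CPM elsewhere. The 6 regulatory markers, such as F3 and Gdf10, summed to between 3248 and 3738 CPM in the regulatory gate. Elsewhere they reached at most 2639 CPM, in Cilp/Myoc cells, where they were at 1147, 2639 and 2348 CPM. The 5 Cilp/Myoc markers summed to 257.7, 457.3 and 631.3 CPM in the Cilp/Myoc gate and to at most 69.9 CPM elsewhere, and Chad was at 0 in every class. Markers of other cells moved with the gates. The 4 adipocyte markers summed to 88.2, 30.8 and 35.1 CPM in the preadipocyte gate and to at most 1.62 CPM in the progenitor gate. The 5 mural markers summed to between 30.0 and 47.4 CPM in the preadipocyte gate and up to 67.3 CPM in the Cilp/Myoc gate, against 2.92 to 5.46 CPM in the progenitor gate. The 5 endothelial markers summed to between 3.17 and 51.0 CPM in preadipocyte against 2.25 to 7.97 CPM in progenitor cells. The 4 Schwann markers were higher in progenitor cells as a sum, at 27.1, 21.6 and 19.9 CPM against 4.13, 3.99 and 5.53 CPM in preadipocyte cells. Of the 2 Schwann markers tested, 1 was called higher and 1 lower in preadipocyte cells. In cells with no UMI of 18 endothelial, immune, mural, Schwann, epithelial and erythroid markers, Btg1 was still higher in the preadipocyte gate by 1.54 and Gadd45b by 1.32 on the log2 scale, whereas the part of cells with adipocyte markers was not tested. The 4 epithelial markers summed to 111 CPM in the regulatory cells of replicate 3 and to 0 in those of the other mice.

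The classes were compared in 1 edgeR fit with the mouse as a block, and a gene was called where its p, adjusted over the 12418 genes in the fit, was under 0.05. Of the 10 members 7 were called between preadipocyte and progenitor cells, 5 higher and 2 lower, against a background of 55.6% of genes (27.7% higher, 27.8% lower). Between regulatory and progenitor cells 5 were called, 3 higher and 2 lower (background 42.2%, 19.8% higher and 22.4% lower). Cilp/Myoc cells differed from progenitor cells in 3 members, 3 higher and 0 lower in edgeR (15.2%, 6.41% and 8.79%). Regulatory cells differed from preadipocyte cells in 5, with 1 higher and 4 lower (24.7%, 12.2% and 12.5%). Cilp/Myoc cells differed from preadipocyte cells in 3, with 2 higher and 1 lower (6.77%, 3.52% and 3.25%), and from regulatory cells in 2, with 1 in each direction (5.56%, 2.65% and 2.92%). The median log2 fold change of the members was 0.26 from progenitor to preadipocyte cells, beside 0.02 over all genes tested. The gated classes differ in most of what was measured there, so the counts say less about the list than the sizes and directions of its members do. In the Cilp/Myoc comparisons the median of all genes tested lay at -0.12 against progenitor, -0.10 against preadipocyte and -0.08 against regulatory cells on the log2 scale, and with scaling by library size alone at 0.00, -0.01 and 0.07. Without the mouse as a block the members called were 5, 4, 2, 2, 2 and 1, in the order given.

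**Figure D1:**
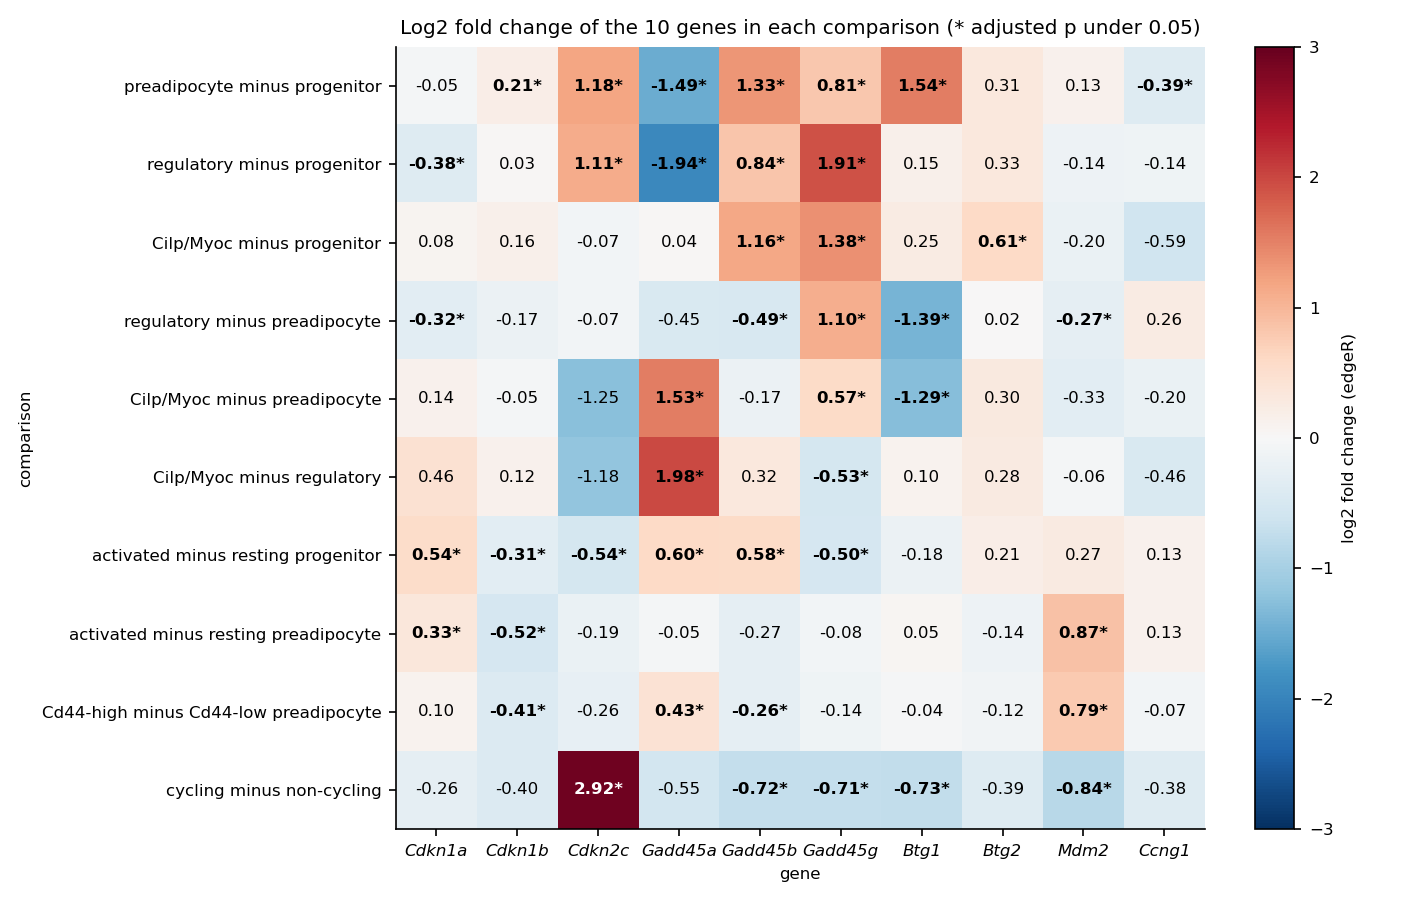
Log2 fold change (edgeR) of each of the 10 genes (columns) in each comparison (rows), with color for direction and size and an asterisk for an adjusted p under 0.05. Btg1 stands out in the comparisons with preadipocyte cells, Gadd45a and Gadd45g change in opposite directions between regulatory and progenitor cells (-1.94 and 1.91), and Cdkn2c is at 2.92 in cycling cells.

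Btg1 marked the preadipocyte gate. Its level was 249.8, 273.2 and 267.0 CPM in the progenitor cells of replicates 1, 2 and 3, and 735.6, 840.7 and 776.2 CPM in preadipocyte cells. Every preadipocyte sum lay above every progenitor sum, and the log2 fold change was 1.54 ± 0.10 (SE, n = 3 mice, edgeR adjusted p = 7.98e-10). Regulatory cells had 289 ± 5.77 CPM (SD, n = 3) and Cilp/Myoc cells 323 ± 82.1 CPM, neither of which passed the test against progenitor cells. Both were below preadipocyte cells, by a log2 fold change of -1.39 ± 0.11 for regulatory (adjusted p = 3.16e-08) and -1.29 ± 0.13 for Cilp/Myoc cells (adjusted p = 6.64e-06). With each cell thinned to 3000 UMIs, a Btg1 UMI was found in 82.9%, 84.9% and 82.8% of preadipocyte cells and in 46.7%, 49.1% and 49.5% of progenitor cells, so most cells of the preadipocyte gate held the transcript (unthinned 95.6%, 97.4% and 95.1%, against 69.4%, 82.2% and 69.4%). The lowest thinned share of any class in a mouse was 38.9%, so no class here lacks Btg1 and could serve as a background.

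Btg2, its p53-inducible relative, had no such separation. It was at 1069, 843.7 and 894.2 CPM in progenitor cells and at 1528, 807.7 and 1342 CPM in preadipocyte cells, with the log2 fold change at 0.31 ± 0.14 (adjusted p = 0.0775). Replicate 2 was the mouse without a rise, and without it the log2 fold change was 0.50 with an adjusted p of 0.0148. The same mouse was low in regulatory cells, at 776.6 CPM beside 1414 and 1408 CPM, and without it the difference from progenitor cells was called (0.56, adjusted p = 0.0131). Cilp/Myoc cells had 1369, 1411 and 2037 CPM, above progenitor cells by 0.61 ± 0.16 (adjusted p = 0.0121). That call was lost without replicate 3 (0.42, adjusted p = 0.176), with stricter gates (0.50, adjusted p = 0.0849) and with cells of several gates counted in each (0.065, adjusted p = 0.895), while without replicate 1 these cells were also called above preadipocyte cells (0.57, adjusted p = 0.0435, beside 0.30 and 0.322 with all mice). Of the 7 genes fixed as BTG and TOB relatives and deadenylase partners, 2 were higher and 3 lower in preadipocyte than in progenitor cells (median -0.16). Over all genes tested 27.7% were higher and 27.8% lower. The called relatives were led by Prmt1 (0.38 ± 0.07, adjusted p = 0.00011), a methyltransferase that BTG proteins bind, and by Cnot1 (-0.37 ± 0.07, adjusted p = 0.000258), the scaffold of the deadenylase.

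The Gadd45 genes ran in different directions across the same cells. Gadd45a was at 63.5, 72.1 and 60.8 CPM in progenitor cells, at 29.7, 21.4 and 21 CPM in preadipocyte cells and at 16.2, 17.2 and 16.6 CPM in regulatory cells. The progenitor sums lay above all others of these gates, and the log2 fold change was -1.49 ± 0.10 for preadipocyte (adjusted p = 6.22e-10) and -1.94 ± 0.15 for regulatory cells (adjusted p = 2.04e-08). Cilp/Myoc cells had 85.2, 77.5 and 42.1 CPM, from only 38, 20 and 5 UMIs. No difference from progenitor cells was called (0.04 ± 0.22 on the log2 scale, adjusted p = 0.94). That value turned sign in some alternatives, for instance -0.34 with thinned cells (adjusted p = 0.619). Cilp/Myoc cells were above preadipocyte cells by 1.53 ± 0.25 (adjusted p = 0.000855) and above regulatory cells by 1.98 ± 0.29 (adjusted p = 0.00032). With cells thinned to 3000 UMIs the former was not called (1.16, adjusted p = 0.0892). Preadipocyte and regulatory cells did not overlap either, yet that difference missed the threshold (-0.45 ± 0.17, adjusted p = 0.0672).

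Gadd45g was the reverse of Gadd45a in regulatory cells. It was at 369.2, 482.7 and 290.3 CPM in progenitor, 618.1, 712.2 and 677.4 CPM in preadipocyte and 1292, 1655 and 1253 CPM in regulatory cells. These 3 gates did not overlap in any mouse. Against progenitor cells the log2 fold change was 1.91 ± 0.12 in regulatory (adjusted p = 1.61e-09), 0.81 ± 0.12 in preadipocyte (adjusted p = 1.76e-05) and 1.38 ± 0.13 in Cilp/Myoc cells (adjusted p = 1.4e-06). Regulatory cells also exceeded preadipocyte cells by 1.10 ± 0.12 (adjusted p = 2.53e-06). Cilp/Myoc cells (1170, 1267 and 732.3 CPM) came between these gates, 0.57 ± 0.13 above preadipocyte (adjusted p = 0.014) and -0.53 ± 0.13 from regulatory cells (adjusted p = 0.0261). These last calls were lost without replicate 2, at 0.51 (adjusted p = 0.141) and -0.54 (adjusted p = 0.132), and the former also without replicate 1 (0.39, adjusted p = 0.249). Once cells that also pass the progenitor gate were counted as Cilp/Myoc, the sign against preadipocyte cells turned (-0.26, adjusted p = 0.0757).

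Gadd45b was lowest in progenitor cells. It was at 90.1, 82.2 and 98.1 CPM there, at 239.7, 181.7 and 288.6 CPM in preadipocyte, 142.5, 112.4 and 244.0 CPM in regulatory and 190.5, 213.2 and 286.2 CPM in Cilp/Myoc cells. No sum of another gate was as low as the highest progenitor sum. The log2 fold change was 1.33 ± 0.11 in preadipocyte (adjusted p = 1.4e-08), 1.16 ± 0.18 in Cilp/Myoc (adjusted p = 0.000201) and 0.84 ± 0.12 in regulatory cells (adjusted p = 2.43e-05). Regulatory cells lay below preadipocyte cells by a log2 fold change of -0.49 ± 0.12 (adjusted p = 0.00568), a call that was lost without replicate 2 (-0.38, adjusted p = 0.0673).

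**Figure D2:**
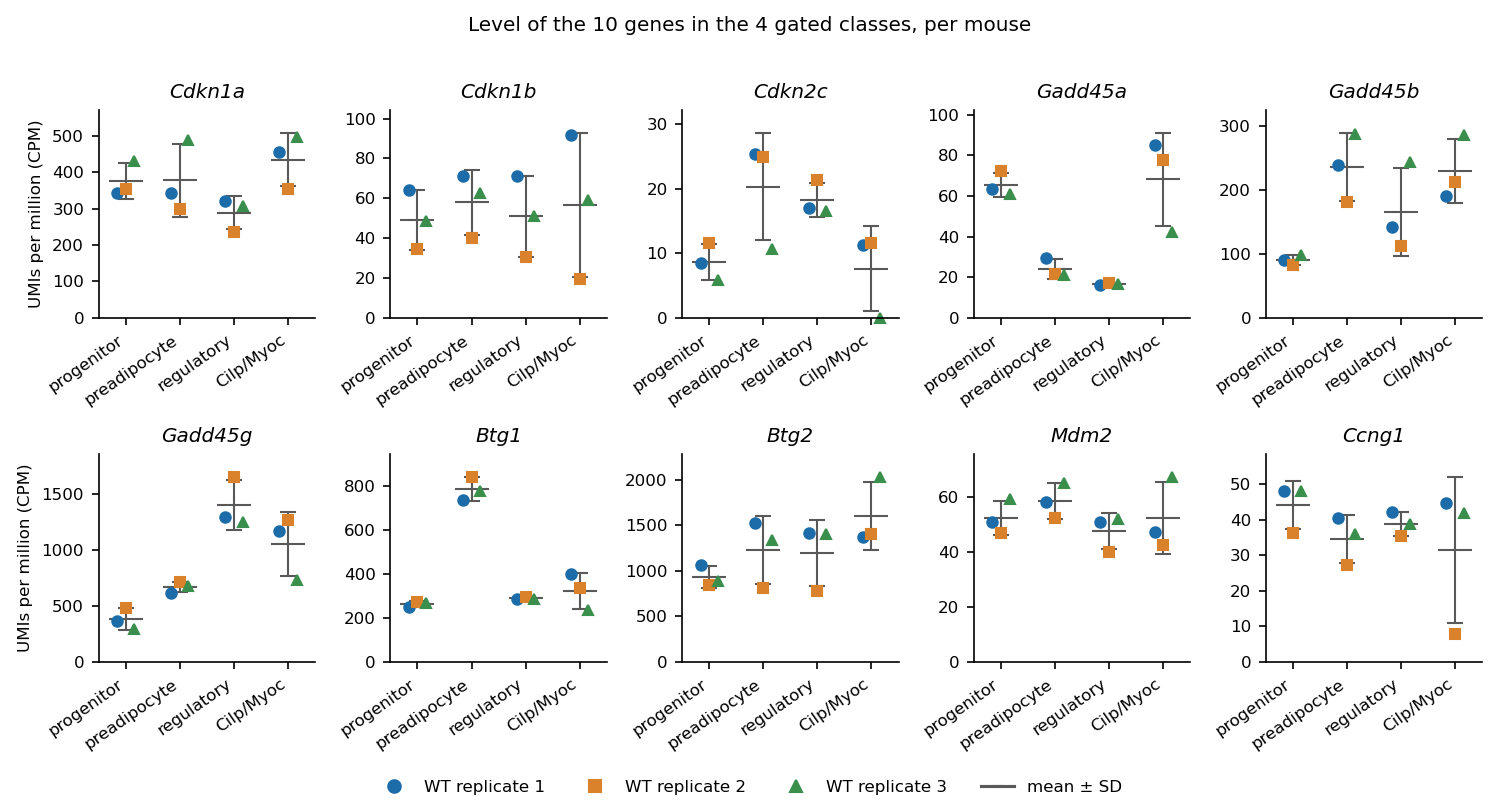
CPM of each gene (1 panel each, linear axis from 0) in the 4 gated classes, with 1 point per mouse and the mean ± SD in gray. The preadipocyte points of Btg1 lie between 735.6 and 840.7 CPM, far above the other gates, whereas the progenitor and preadipocyte points overlap for Cdkn1a, Cdkn1b and Mdm2.

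Among the 3 kinase inhibitors that are members, Cdkn2c was the one with large class differences. Progenitor cells had 8.42, 11.5 and 5.92 CPM, preadipocyte cells 25.4, 24.9 and 10.7 CPM, and regulatory cells 16.9, 21.3 and 16.6 CPM. The preadipocyte and progenitor sums overlapped across mice, because replicate 3 was low in both, while each mouse was higher in preadipocyte cells. The log2 fold change was 1.18 ± 0.14 for preadipocyte (adjusted p = 1.61e-06) and 1.11 ± 0.20 for regulatory cells (adjusted p = 0.000276). In the small Cilp/Myoc sums Cdkn2c had 5, 3 and 0 UMIs. The 0 in replicate 3 allows up to 25.3 CPM (3 counts), a limit that covers counting error only. The log2 fold change was -1.25 ± 0.51 against preadipocyte (adjusted p = 0.173) and -1.18 ± 0.53 against regulatory cells (adjusted p = 0.264), with lower values in 3 of 3 mice. With cells of several gates counted in each it was -1.30 (adjusted p = 0.000143) and -1.27 (adjusted p = 0.00113), both called. That run had 635, 315 and 644 Cilp/Myoc cells, of which 554, 282 and 614 also passed the progenitor gate. It therefore measures mostly cells that are progenitor cells by the gates as well.

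Cdkn1a was at 342.4, 353.5 and 431.7 CPM in progenitor cells and at 344.0, 299.1 and 488.6 CPM in preadipocyte cells. The gates overlapped, and the log2 fold change was -0.05 ± 0.10 (adjusted p = 0.678). Regulatory cells were at 321.1, 236.3 and 307.3 CPM, lower than progenitor cells by a log2 fold change of -0.38 ± 0.11 (adjusted p = 0.00877) and lower than preadipocyte cells by -0.32 ± 0.11 (adjusted p = 0.0352). The first call was lost without replicate 2 (-0.26, adjusted p = 0.182) or replicate 3 (-0.32, adjusted p = 0.0503). So was the second (-0.31, adjusted p = 0.162, and -0.17, adjusted p = 0.373). Stricter gates removed both calls as well. The second was also lost with DESeq2's size factors or test, without the top 5% of cells and in cells with no Nr4a3 or Fosl1 UMI. Cilp/Myoc cells had 435 ± 74.1 CPM (SD, n = 3) and were 0.46 ± 0.14 above regulatory cells (adjusted p = 0.0597).

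Cdkn1b varied more between mice than between gates. Replicate 1 was the highest and replicate 2 the lowest mouse in each gate, for instance 64.4, 34.4 and 48.5 CPM in progenitor and 71.3, 40.0 and 62.6 CPM in preadipocyte cells. The rise in preadipocyte cells was small (0.21 ± 0.08, adjusted p = 0.0437). It was not called without replicate 2 (0.21, adjusted p = 0.0794) or replicate 3 (0.15, adjusted p = 0.311), nor with DESeq2 (0.22, adjusted p = 0.17).

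The p53 targets Mdm2 and Ccng1 changed little between gates. Mdm2 was at 51.0, 47.0 and 59.1 CPM in progenitor cells and 58.1, 52.3 and 65.1 CPM in preadipocyte cells, a log2 fold change of 0.13 ± 0.06 (adjusted p = 0.109). In regulatory cells it was at 50.8, 39.9 and 51.8 CPM, below preadipocyte cells by a log2 fold change of -0.27 ± 0.09 (adjusted p = 0.0367). No pair of mice alone gave that call, and in cells with no UMI of Nr4a3 or Fosl1 the value was -0.032 (adjusted p = 0.891). Without replicates 1, 2 and 3 the value was -0.32, -0.19 and -0.26 (adjusted p = 0.0572, 0.375 and 0.151). Ccng1, which encodes the p53-induced cyclin G1, was at 48.3, 36.4 and 48.1 CPM in progenitor and 40.6, 27.3 and 36.1 CPM in preadipocyte cells. Each mouse was lower in preadipocyte cells, by a log2 fold change of -0.39 ± 0.08 (adjusted p = 0.000738).

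Other p53 targets went both ways. Trp53, the gene of p53 itself, was at 42.0 ± 4.13 CPM in progenitor and 58.7 ± 6.74 CPM in preadipocyte cells (SD, n = 3), higher by 0.45 ± 0.07 on the log2 scale (adjusted p = 6.13e-05). Of 24 further targets 21 could be tested, and 5 rose and 5 fell from progenitor to preadipocyte cells (median 0.05). Over all genes tested 27.7% rose and 27.8% fell there. Phlda3, a repressor of AKT signaling, rose from 14.1, 14.03 and 9.75 CPM to 54.1, 61.9 and 39.2 CPM (1.99 ± 0.09, adjusted p = 7.19e-12). Pmaip1, which encodes the cell death protein NOXA, fell from 7.99, 8.26 and 11.8 CPM to 0.978, 0.383 and 1.25 CPM (-3.47 ± 0.21, adjusted p = 3.48e-10). Plk2, a kinase, fell by a log2 fold change of -1.71 ± 0.12 (adjusted p = 3.12e-09). In regulatory cells 5 rose and 5 fell as well (median 0.13), where 19.8% of all genes rose and 22.4% fell. Of 9 genes that control p53, the list that holds Trp53, 1 was higher and 2 were lower in preadipocyte cells (median -0.13).

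Of 7 other kinase inhibitors and pocket proteins 6 could be tested, and 1 rose and 4 fell in preadipocyte against progenitor cells (median -0.39), where 27.7% of all genes rose and 27.8% fell. Cdkn1c, which encodes the inhibitor p57, fell from 55.3, 86.7 and 64.3 CPM to 12.5, 16.5 and 12.5 CPM (-2.33 ± 0.09, adjusted p = 1.7e-12), and Cdkn2d, the p19 inhibitor of the same family as Cdkn2c, rose by 0.54 ± 0.14 (adjusted p = 0.00318). Of the G1 cyclins and kinases 3 rose and 3 fell among 8 tested (median 0.13). Ccnd1, the gene of cyclin D1, fell from 41.5, 40.7 and 39.1 CPM to 9.29, 17.1 and 15.0 CPM (-1.61 ± 0.17, adjusted p = 3.78e-07). Cdk6, a kinase that Cdkn2c inhibits, rose by 4.45 ± 0.37 (adjusted p = 1.69e-08), from a mean of 0.124 CPM to 2.93 CPM. Of 14 proliferation genes tested, 1 rose and 0 fell (edgeR, median 0.20).

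Genes of the early response, which dissociation of tissue also induces, moved along with the class differences. Of 20 such genes 14 were higher and 3 lower in preadipocyte than in progenitor cells (median 0.58). In regulatory cells 13 were higher and 2 lower (median 0.53), and in Cilp/Myoc cells 16 were higher and 1 lower (median 0.65). Over all genes tested, in the same order, 27.7% were higher and 27.8% lower, 19.8% and 22.4%, and 6.41% and 8.79%. Jun, an AP-1 subunit, was higher by 1.42 ± 0.10 in preadipocyte cells (adjusted p = 1.26e-09), Fos, its partner, by 0.83 ± 0.12 (adjusted p = 1.76e-05) and the stress factor Atf3 by 0.41 ± 0.09 (adjusted p = 0.00123), while Egr1 was at 0.23 ± 0.11 (adjusted p = 0.0857). The part of this response in the class differences of Btg1 and Gadd45b was not tested. Another set of response genes ran the other way: cells with at least 2 UMIs of Nr4a3 and Fosl1 together, called activated here, made up 45.7%, 56.6% and 58.9% of progenitor cells but 5.09%, 13.0% and 12.8% of preadipocyte cells. Both are immediate early genes, a nuclear receptor and an AP-1 subunit.

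Among cells with no UMI of Nr4a3 or Fosl1, 7 members were called between the preadipocyte and progenitor gates, as many as in all gated cells. The background of 55.6% of genes belongs to all gated cells. The share of all genes called among these cells is not given here, so this count says little about the list. Btg1 was higher by 1.43, Gadd45b by 1.78 and Cdkn2c by 0.97 on the log2 scale, and Gadd45a was lower with a log2 fold change of -1.08. Btg2 was now called (0.47, adjusted p = 0.0021), Cdkn1b no longer (0.12, adjusted p = 0.283), and Cdkn1a took the other sign without a call (0.25, adjusted p = 0.0713). The lower Cdkn1a of regulatory cells was not found among these cells either (0.039, adjusted p = 0.847), whereas their Gadd45a (-1.65) and Gadd45g (1.71) stayed called.

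**Figure D3:**
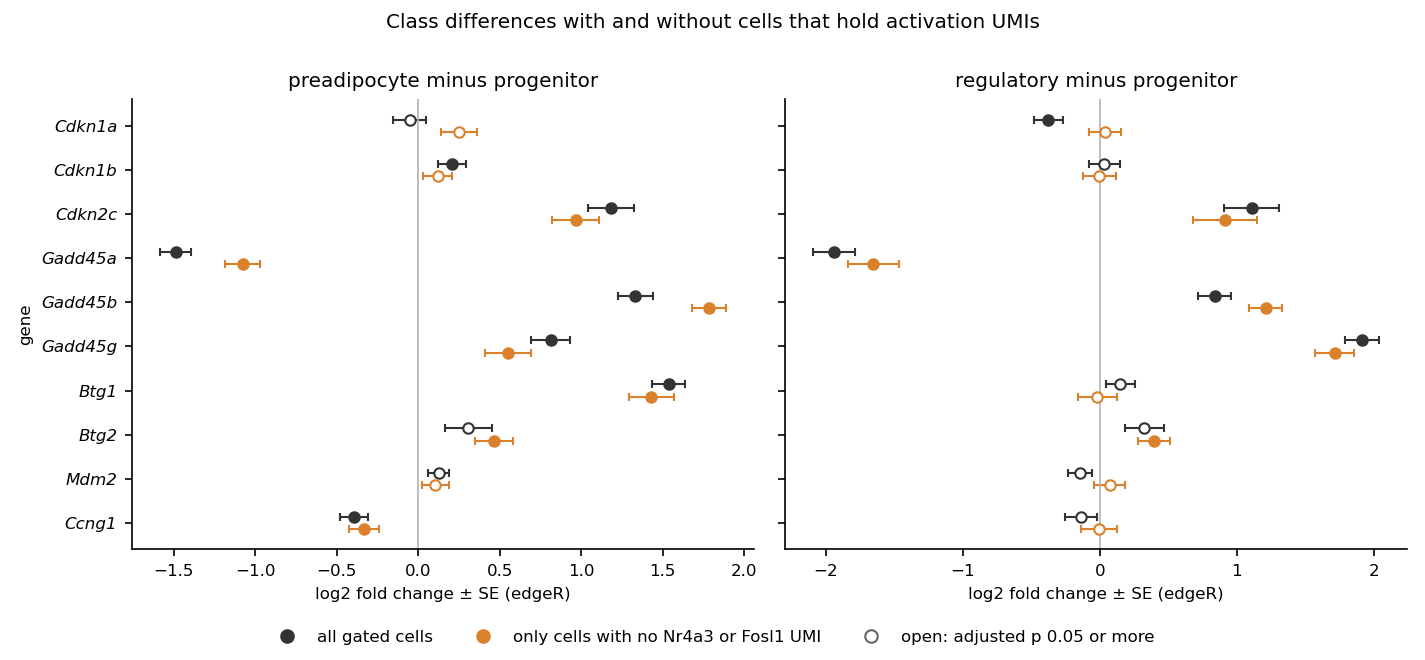
Log2 fold change ± SE (edgeR, horizontal axis) of each gene for preadipocyte (left) and regulatory cells (right) against progenitor cells, in all gated cells (gray) and in cells with no UMI of Nr4a3 or Fosl1 (orange). Filled points have an adjusted p under 0.05. Cdkn1a moves from -0.38 to 0.039 in regulatory cells, while Gadd45g stays near 1.91 and 1.71.

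Within the progenitor gate, activated cells (3130, 1635 and 5104) were compared with resting cells that had no UMI of either gene (2573, 924 and 2117). Of the 10 members 6 were called, 3 in each direction, against a background of 17.3% of 12553 genes (10.1% higher, 7.26% lower). The fit without the mouse as a block called 0 of them in edgeR, with 10 genes called in all and 1409 at an unadjusted p under 0.05. Cdkn1a rose from 294.8, 259.5 and 371.4 CPM in resting to 370.4, 407.4 and 454.5 CPM in activated cells (0.54 ± 0.09, adjusted p = 0.0116). Gadd45a rose from 53.4, 53.2 and 49.0 CPM to 68.6, 83.9 and 66.0 CPM (0.60 ± 0.09, adjusted p = 0.0062), and these sums did not overlap. Gadd45b rose from 71.6, 63.7 and 82.7 CPM to 102.2, 93.0 and 104.6 CPM, again without overlap (0.58 ± 0.07, adjusted p = 0.00379).

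Gadd45g fell in the same cells. It was at 447.3, 682.4 and 353.9 CPM in resting and at 309.8, 367.6 and 263.0 CPM in activated progenitor cells (-0.50 ± 0.07, adjusted p = 0.00587). Cdkn2c (-0.54 ± 0.12, adjusted p = 0.0271) and Cdkn1b (-0.31 ± 0.07, adjusted p = 0.0241) were lower in each mouse, but without replicate 3 they were at -0.44 (adjusted p = 0.124) and -0.30 (adjusted p = 0.129), and neither was called with thinned cells (adjusted p = 0.0747 and 0.0814) or with DESeq2 (0.0737 and 0.0903). Leaving out 1 mouse brought 3 other members past the threshold: Mdm2 without replicate 1 (0.30, adjusted p = 0.0368, beside 0.27 and 0.0612 with all mice), Btg1 without replicate 2 (-0.36, adjusted p = 8.25e-06, beside -0.18 and 0.251) and Btg2 without replicate 3 (0.41, adjusted p = 0.022, beside 0.21 and 0.286). Ccng1 was at 0.13 ± 0.06 (adjusted p = 0.152).

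Activated progenitor cells were not higher in the early response as a whole: of the 20 genes 5 rose and 10 fell (median -0.37). Over all genes tested 10.1% rose and 7.26% fell. Fos was lower by a log2 fold change of -1.08 ± 0.09 (adjusted p = 0.00155), Jun by -0.94 ± 0.07 (adjusted p = 0.00113) and Atf3 by -0.67 ± 0.10 (adjusted p = 0.0062), and Egr1 was at -0.31 ± 0.11 (adjusted p = 0.0967). Trp53 was at -0.02 ± 0.06 (adjusted p = 0.857). Of 21 other p53 targets tested 2 rose and 4 fell (median -0.05): Pmaip1 rose by 0.93 ± 0.10 (adjusted p = 0.00306), while Ddit4, an inhibitor of mTORC1 (-1.43 ± 0.13, adjusted p = 0.00172), and Plk2 (-0.95 ± 0.07, adjusted p = 0.00111) fell. Activated cells were slightly deeper, with a median of 7717.5, 12261 and 6946 UMIs against 6807, 11500.5 and 5938. With cells thinned to 3000 UMIs 4 members were called. Fewer genes were called over all in that run as well, so the 17.3% of the unthinned fit is not its background. The 3 erythroid markers summed to 32.1, 4.63 and 21.3 CPM in activated and 1.15, 4.69 and 4.34 CPM in resting cells. Of 6 preadipocyte markers 5 were called lower and 0 higher in activated cells. The part of these markers in the members' values was not tested.

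The same comparison inside the preadipocyte gate, added after the data were seen, had 116, 181 and 241 activated cells. Of the 10 members 3 were called, 2 higher and 1 lower, against a background of 12.9% of 11176 genes (8.97% higher, 3.92% lower), and 0 in edgeR without the block (49 genes in all, 1372 at an unadjusted p under 0.05). Mdm2 rose from 52.97, 43.8 and 57.7 CPM in resting to 89.9, 86.9 and 82.3 CPM in activated preadipocyte cells, with no overlap (0.87 ± 0.11, adjusted p = 4.14e-05). Cdkn1a rose from 324.9, 286.6 and 483.8 CPM to 398.0, 314.9 and 571.7 CPM (0.33 ± 0.07, adjusted p = 0.00569), though without replicate 3 the adjusted p was 0.0555 at 0.31. Cdkn1b fell from 74.5, 45.8 and 66.3 CPM to 51.7, 19.5 and 56.8 CPM (-0.52 ± 0.15, adjusted p = 0.0284), a call that was lost without replicate 2 (-0.28, adjusted p = 0.253). Of 20 other p53 targets tested 3 rose and 2 fell (median 0.04). Sesn2, a stress-induced inhibitor of mTORC1, rose by 1.76 ± 0.30 (adjusted p = 0.000723), and Ddit4 (-1.56 ± 0.23, adjusted p = 0.000141) and Phlda3 (-1.08 ± 0.14, adjusted p = 3.74e-05) fell. Trp53 was at -0.11 ± 0.11 (adjusted p = 0.562), and of the 20 early response genes 4 rose and 9 fell (median -0.16). The 5 mural markers summed to 210.9, 28.5 and 53.6 CPM in activated and 38.7, 28.4 and 40.2 CPM in resting cells. For the 5 immune markers it was 5.17, 0.749 and 38.4 CPM against 1.88, 0.959 and 0.672 CPM. Of 6 progenitor markers tested 3 were called higher and 0 lower in activated cells. The part of these markers in the members' values was not tested.

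Gadd45a and Gadd45b, which rose in activated progenitor cells, were at -0.05 ± 0.19 (adjusted p = 0.913) and -0.27 ± 0.11 (adjusted p = 0.115) in activated preadipocyte cells. Gadd45b was lower in each mouse there, and it was called without replicate 1 (-0.37, adjusted p = 0.0298) or replicate 3 (-0.40, adjusted p = 0.0411). The difference between the gates in the effect of activation was tested as an interaction, which called 0 of the 10 members in edgeR, beside 90 of 12800 genes (0.703%). For Gadd45b it was -0.88 ± 0.19 (adjusted p = 0.0527), for Mdm2 0.57 ± 0.15 (adjusted p = 0.125) and for Gadd45a -0.77 ± 0.28 (adjusted p = 0.278). Without replicate 2 the value for Gadd45b was -0.60 (adjusted p = 0.0452), the only member then called.

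**Figure D4:**
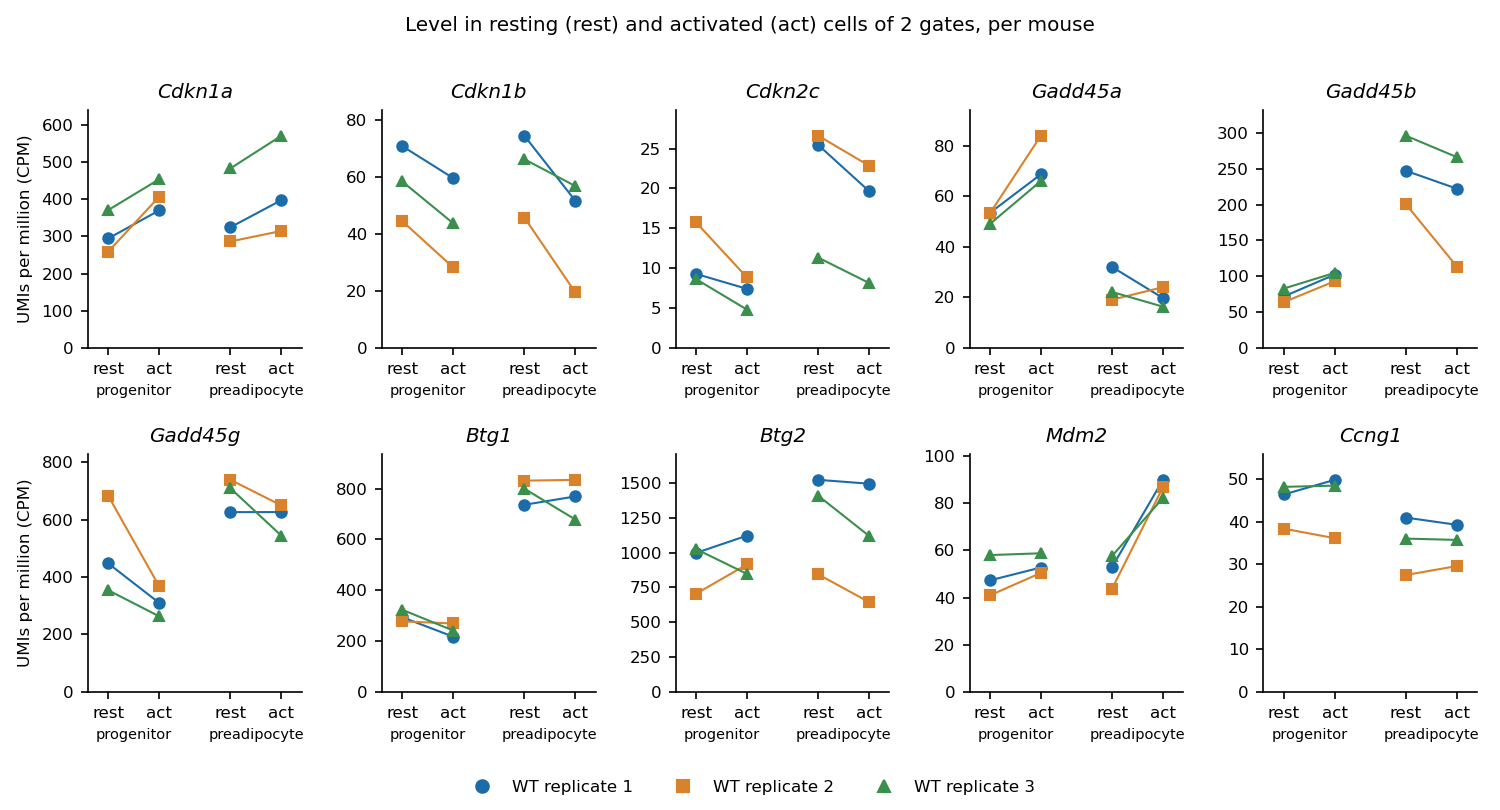
CPM of each gene (linear axis from 0) in resting and activated cells of the progenitor and the preadipocyte gate, with a line per mouse. The lines of Mdm2 climb in the preadipocyte gate from between 43.8 and 57.7 CPM to between 82.3 and 89.9 CPM, and those of Gadd45b rise in the progenitor gate and fall in the preadipocyte gate.

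The study split Icam1+ cells, by clusters and by sorting on surface protein, into CD44high cells, named pro-preadipocytes, and CD44low preadipocytes. The split used here is on Cd44 RNA, in a gate that a cell can pass on Fabp4 alone, so the groups need not match. Here preadipocyte cells with at least 2 Cd44 UMIs (Cd44-high, 294, 312 and 324 cells) were compared with those with none (Cd44-low, 1557, 756 and 1157 cells), and 4 of 10 members were called, 2 in each direction, against a background of 18.1% of 11278 genes (12.2% higher, 5.87% lower). Without the block edgeR called 0 members and 0 genes in all, with 1206 at an unadjusted p under 0.05. Mdm2 was at 79.4, 81.6 and 78.4 CPM in Cd44-high and at 50.7, 42.3 and 57.2 CPM in Cd44-low cells. The groups did not overlap, and the log2 fold change was 0.79 ± 0.10 (adjusted p = 0.000171). Cdkn1b was lower in Cd44-high cells, at 60.1, 30.0 and 44.0 CPM against 75.0, 45.3 and 68.6 CPM (-0.41 ± 0.09, adjusted p = 0.00804). With the DESeq2 test Cdkn1b was not called.

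The other 2 calls were lost in more of the alternative runs. Gadd45a was at 39.0, 21.3 and 23.4 CPM in Cd44-high and 24.8, 20.95 and 19.4 CPM in Cd44-low cells (0.43 ± 0.13, adjusted p = 0.0413), and replicate 1 carried most of it, since the value without that mouse was 0.23 (adjusted p = 0.322). It was also not called without replicate 3 (0.42, adjusted p = 0.0989) or with DESeq2 (0.42, adjusted p = 0.32). The same held with library size alone, thinned cells, a 10% mitochondrial limit, without the top 5% of cells and with states at 3 or more UMIs. Gadd45b was at 201.8, 147.8 and 244.8 CPM against 248.2, 206.2 and 299.3 CPM (-0.26 ± 0.06, adjusted p = 0.016). It was not called without replicate 2 (-0.23, adjusted p = 0.0561) or 3 (-0.31, adjusted p = 0.0558), nor with DESeq2 or thinned cells. Cd44-high cells were deeper, with a median of 8861.5, 13729 and 7578.5 UMIs against 7863, 12606.5 and 7118 in Cd44-low cells. Gadd45g was called without replicate 2 alone (-0.30, adjusted p = 0.00421, beside -0.14 and 0.238 with all mice). Cdkn1a was at 0.10 ± 0.06 (adjusted p = 0.249), Btg1 at -0.04 ± 0.05 (adjusted p = 0.623) and Trp53 at -0.03 ± 0.08 (adjusted p = 0.852).

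Markers of other classes moved with Cd44. The 5 endothelial markers summed to 1.11, 1.95 and 0 CPM in Cd44-high and to 39.1, 79.8 and 4.97 CPM in Cd44-low cells, 6 of 6 progenitor markers tested were higher in Cd44-high cells (median 0.52), and 4 of 6 preadipocyte markers were lower (median -0.24). In cells with no UMI of the 18 markers named above, Mdm2 (0.80, adjusted p = 6.21e-05), Cdkn1b, Gadd45a and Gadd45b stayed called. The part of the progenitor and preadipocyte markers was not tested. Cd44-high cells also held more activated cells than Cd44-low cells, 8.84%, 27.2% and 26.9% against 3.79%, 7.80% and 8.12%. Among preadipocyte cells with no UMI of Nr4a3 or Fosl1, Mdm2 was still higher in Cd44-high cells by 0.67 ± 0.10 (adjusted p = 0.000312) and Gadd45a by 0.71 ± 0.14 (adjusted p = 0.00241), while Cdkn1b (-0.29, adjusted p = 0.0798) and Gadd45b (-0.12, adjusted p = 0.308) were not called. Conversely, among preadipocyte cells with no Cd44 UMI, Mdm2 was higher in activated than in resting cells by 0.77 ± 0.14 (adjusted p = 0.00509) and Cdkn1a by 0.40 ± 0.09 (adjusted p = 0.0157). Both comparisons leave the same cells as the lower group, so they are not independent of each other. Of 20 other p53 targets tested, 4 rose and 2 fell in Cd44-high cells (median -0.02). Over all genes tested 12.2% rose and 5.87% fell. Sesn2 rose by 0.98 ± 0.28 (adjusted p = 0.0328), and Ddit4 (-1.05 ± 0.14, adjusted p = 0.000279) and Phlda3 (-0.78 ± 0.12, adjusted p = 0.000659) fell. Usp7, the gene of a deubiquitinase that stabilizes MDM2, rose by 0.33 ± 0.08 (adjusted p = 0.0134). Ccnd1 rose by 0.99 ± 0.19 (adjusted p = 0.00414), as the 1 gene called of 8 G1 cyclins and kinases. In the early response 4 of 20 genes rose and 8 fell (median -0.14), with Jun at -0.72 ± 0.06 (adjusted p = 1.5e-05) and Fos at -0.62 ± 0.06 (adjusted p = 2.01e-05).

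Few cells were cycling. Only 29, 30 and 19 kept cells had at least 2 UMIs of Mki67 and Top2a together, and 22, 21 and 12 of them passed exactly 1 gate. These were 21, 12 and 9 progenitor, 1, 9 and 3 preadipocyte and 0 regulatory or Cilp/Myoc cells. Among all kept cells 52.7%, 45.0% and 57.1% were progenitor and 17.5%, 21.7% and 12.4% preadipocyte cells. The part of this mix of gates in the values below was not tested. The cycling cells were compared with all kept cells that had no UMI of either gene. Of the 10 members 5 were called, 1 higher and 4 lower, against a background of 11.0% of 13687 genes (5.37% higher, 5.65% lower). Cdkn2c was at 88.2, 137.8 and 91.2 CPM in cycling cells, from 26, 102 and 19 UMIs, and at 13.1, 14.8 and 7.21 CPM in non-cycling cells. The log2 fold change was 2.92 ± 0.25 (adjusted p = 1.72e-28), and 3.03 in gated cells only. Without the 5% of cells with the most UMIs it was 1.73 (adjusted p = 0.00882), with 24, 12 and 10 cycling cells left. Cycling cells were deeper, with a median of 9289, 22477.5 and 9609 UMIs against 7388, 12178 and 6661 in non-cycling cells. Cdkn2d, a relative of Cdkn2c, was higher as well (2.66 ± 0.25, adjusted p = 8.62e-24).

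The lower members in cycling cells were Mdm2 (-0.84 ± 0.28, adjusted p = 0.0271), Btg1 (-0.73 ± 0.20, adjusted p = 0.00439), Gadd45b (-0.72 ± 0.22, adjusted p = 0.0155) and Gadd45g (-0.71 ± 0.20, adjusted p = 0.00519). The median of all genes tested was at -0.18 on this scale, beside 0.08 with scaling by library size alone, where 0 of these 4 were called and their values ran from -0.58 for Mdm2 to -0.44 for Gadd45b and Gadd45g (edgeR). Leaving out replicate 1 also removed all 4 calls (values from -0.74 for Mdm2 to -0.46 for Gadd45b), as did leaving out replicate 3 (from -0.72 for Btg1 to -0.57 for Mdm2). Cdkn1a was at -0.26 ± 0.20 (adjusted p = 0.5) and Cdkn1b at -0.40 ± 0.26 (adjusted p = 0.421). Of 13 proliferation genes tested all 13 rose (median 3.47), and among other p53 targets 0 of 21 were called in edgeR (median -0.06). Over all genes tested 5.37% rose and 5.65% fell. Markers of some other cell types were higher in cycling cells, though not in each mouse. The 3 erythroid markers summed to 0, 6806 and 4651 CPM against at most 12.1 CPM in the rest. Of the cycling cells only 0, 1 and 1 had 10 or more haemoglobin UMIs. In replicates 1, 2 and 3 the 5 endothelial markers summed to 6.78, 249 and 0 CPM, against at most 12.9 CPM in the rest. The 5 mural markers summed to 23.7, 149 and 0 CPM, against at most 22.4 CPM in the rest. All 5 endothelial and 3 of the 5 mural markers were called higher, while 2 of 3 epithelial and 1 of 3 Schwann markers tested were called lower. The part of these markers in the members' values was not tested. Without cells that had 10 or more haemoglobin UMIs Cdkn2c was at 2.93 and the same number of members, 5, was called.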

How the data were processed

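Droplet libraries of CD31- CD45- stromal vascular cells were sequenced for 3 mice. The deposited values were whole UMI counts per gene and cell barcode, made by the authors with Cell Ranger (version 4.0.0 per the file headers, 2.1.1 in the submitters' processing notes, build mm10) and not normalized. No doublet caller was run here, and an alternative left out the 5% of cells with the most UMIs.

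Cells were gated and assigned to states on raw UMIs, and summed per class or state within each of the 3 mice (1 mouse in each sum). The sums were tested with edgeR's quasi-likelihood test (4.0.16, R 4.3.3) after its default filter on low counts and TMM scaling, with the mouse as a block and Benjamini-Hochberg adjustment over all genes tested. The 4 classes were fitted together (12 sums) and each pair of states alone (6 sums). Genes that define a gate or state stayed out of the tests. The script was tested on simulated data. SE is the log2 fold change divided by the square root of F, and CPM is scaled to a total of 1000000 UMIs per sum without TMM. The block follows from the design, since sums of a mouse come from 1 animal. Deviations of same-numbered sums from their class means correlated at 0.153 to 0.428, 0.386 to 0.667 and 0.247 to 0.524 in replicates 1, 2 and 3 over 13253 genes. P-values rest on the spread left among the sums of these 3 mice alone after the block, which edgeR shares in part across genes. In the cycling comparison that spread was shared almost wholly, so its p-values do not measure the spread of 1 gene.

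The members and lists were chosen with earlier results of these data known. Named beside the members were, of each list, at most 3 genes past an adjusted p of 0.05 with the largest changes and 1 sign in each mouse, and Fos, Jun, Egr1, Atf3 and Trp53. Alternatives covered the block, DESeq2 (1.42.0), scaling, filters, depth, gates, states and each mouse left out. The activated preadipocyte comparison, the interaction, the state threshold of 1 UMI and the runs without markers of other cell types, haemoglobin-rich, ungated, activated or Cd44+ cells were added after the data were seen. Exon positions and strands are those of GENCODE M21 on GRCm38. Totals per library were 95899433, 79801002 and 100846072 UMIs.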

Additional observations from a re-analysis of the deposited data

Results flagged for a closer look

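Gadd45b had values of opposite sign for activation in the 2 gates, of which 1 was called. Its level was higher in activated than in resting cells in 3 of 3 mice of the progenitor gate and lower in 3 of 3 mice of the preadipocyte gate. The log2 fold change was 0.58 (edgeR adjusted p = 0.00379) in the former and -0.27 (adjusted p = 0.115) in the latter. The difference of the log2 fold changes was -0.88 ± 0.19 (SE, n = 3 mice, edgeR interaction test, adjusted p = 0.0527), and across the fits that leave out 1 mouse the adjusted p ran from 0.0452 to 0.165. Without the mouse as a block it was -0.83 (adjusted p = 0.999991).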

How the results depend on the processing

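Of 43 called results of single members, 23 stayed called in every alternative run but the one without the replicate block, and 2 turned in sign. In preadipocyte against progenitor, regulatory against progenitor and Cilp/Myoc against progenitor cells the number of members called stayed within 1.5 times in each alternative. Without the replicate block 2 members were called between regulatory and preadipocyte cells, 1 between Cilp/Myoc and regulatory cells, 1 between cycling and other cells, and 0 in both activation comparisons and in the Cd44 comparison (edgeR). Over all genes the calls were 10 without the block beside 2174 for activated progenitor cells, 49 beside 1441 for activated preadipocyte cells, 0 beside 2042 for Cd44-high cells and 706 beside 1508 for cycling cells. Between gates it gave 3618 beside 6901, 2882 beside 5241, 1397 beside 3070, 373 beside 841 and 276 beside 691 (preadipocyte and regulatory against progenitor, regulatory and Cilp/Myoc against preadipocyte, Cilp/Myoc against regulatory). The DESeq2 test called 1083, 663, 757 and 852 genes for activated progenitor, activated preadipocyte, Cd44-high and cycling cells. Leaving out 1 mouse gave 897 without replicate 3 for activated progenitor, 911 without replicate 2 for activated preadipocyte, 1074 and 1244 without replicates 2 and 3 for Cd44-high, 630 and 892 without replicates 2 and 3 for cycling, 426 and 464 without replicates 1 and 2 for Cilp/Myoc against preadipocyte, 378 and 359 without them against regulatory, 1216 without replicate 2 against progenitor and 1909 without it for regulatory against preadipocyte cells. Cycling cells had 430 without the top 5% of cells. Thinning left 1297 for activated progenitor, 886 for Cd44-high, 489 for cycling and 464, 1157 and 1916 for Cilp/Myoc against preadipocyte, Cilp/Myoc against progenitor and regulatory against preadipocyte cells. With cells of several gates counted in each, Cilp/Myoc cells differed from preadipocyte cells in 5953, from regulatory cells in 4545 and from progenitor cells in 479 genes (1887 before). Most Cilp/Myoc cells of that run also passed the progenitor gate.

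For regulatory against preadipocyte cells 5 members became 3 with DESeq2's size factors or test, without the top 5% of cells, with stricter gates and without Nr4a3 or Fosl1 UMIs, and 2 to 4 with 1 mouse left out. With cells of several gates counted in each, 6 members were called for Cilp/Myoc cells against both preadipocyte and regulatory cells (3 and 2 before), and stricter gates left 1 in the latter, as 1 to 2 did with a mouse left out. Reversed there were Ccng1 (0.34) and Gadd45g (-0.26) against preadipocyte and Gadd45b (-0.34) and Btg1 (-0.23) against regulatory cells; Cdkn1a turned to 0.039 in regulatory against progenitor cells with no Nr4a3 or Fosl1 UMI. For Cd44 the 4 calls became 1 with DESeq2, 2 without activated cells and 2 to 4 with a mouse left out. For cycling cells the 5 became 3 with DESeq2's size factors or test, thinning, without the top 5% or in gated cells only, 1 with library size alone and 1 to 5 with a mouse left out. Library size alone gave 5 in activated preadipocyte cells and moved the higher and lower genes from 1263 and 911 to 794 and 2125 (activated progenitor, all-gene median -0.11), from 1003 and 438 to 642 and 825 (activated preadipocyte, median -0.11), from 1380 and 662 to 922 and 1260 (Cd44-high) and from 735 and 773 to 1088 and 284 (cycling). A further 29 uncalled results took another sign in an alternative that did not call them either. The cause of these changes was not tested. The small Cilp/Myoc and cycling sums limit what those comparisons can detect.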

Other observations

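Cells that passed no gate (2908, 1318 and 3488 in replicates 1, 2 and 3) lay between the progenitor and preadipocyte gates in the members that separate those gates. Their Btg1 level was 505.7, 478.2 and 466.4 CPM, above every progenitor sum and below every preadipocyte sum. Gadd45a was at 37.0, 49.9 and 43.6 CPM and Gadd45b at 177.6, 134.4 and 207.0 CPM in these cells, between the gates in each mouse. Gadd45g was at 698.9, 903.1 and 675.9 CPM, which was not between the gates in replicates 1 and 2. No test was run on these cells.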
